A study of Homo sapiens with 27 samples.

Results

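MMP2sh2 cells were compared with control cells while the cultures were still sparse, to ask which transcripts differed when MMP2 was reduced in dividing cells. Both are lines of U2OS, a human osteosarcoma line that grows as an adherent, mesenchymal sheet. The control line carried a blank pLKO.1 lentiviral vector with no hairpin (titled WT), and the MMP2sh2 line (titled MMP2KD_26) carried an shRNA against MMP2 in the same kind of vector. Both were stable lines that went through infection and puromycin selection, and whether each is a clone or a pool was not given in the sources used here. All libraries of the comparison came from day −2, the harvest after plating at 30% confluence, which the labels call Proliferating. Each group held 3 libraries, stated to be biological replicates, so that 6 of the 27 libraries of the series were used. Of the 55882 gene symbols in the count files, 18845 passed the filter on low counts and were tested. A second hairpin line, MMP2sh1, and later harvests of the same lines at confluence (day 0) and over-confluence (day +2) served for direct tests of where the MMP2sh2 difference was unlike them. The control cells held no hairpin and MMP2sh2 is a single hairpin line, so the loss of MMP2, other effects of the hairpin and differences between the lines cannot be told apart.

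MMP-2 (gelatinase A) is a zinc-dependent endopeptidase that is secreted as an inactive proenzyme. It is activated at the cell surface by MMP-14 with the help of TIMP-2, and it degrades denatured collagen and basement membrane components. A pool of the enzyme also enters the nucleus, where it can clip the N-terminal tail of histone H3 as cathepsins can. In mesenchymal cells its transcript is abundant, and its activity is tied to matrix turnover, migration and release of growth factors from the matrix.

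The 6 libraries held 35135375 to 59374327 counts on genes, beside 33580129 to 59374327 over all 27 libraries. The control libraries held 59374327, 43980535 and 35135375 counts for replicates 1, 2 and 3. Every pair of replicates differed by more than sampling noise (chi-square per degree of freedom 8.92 to 12.2), and no library was a copy of another. The labelled cell type was checked against 8 mesenchymal and osteosarcoma markers, of which VIM, COL1A1, RUNX2, CDH2, CDH11, THY1 and S100A4 were above 1 CPM (the count scaled to library size with TMM factors) and COL1A2 was near 0 (0.033 CPM in control and 0.093 CPM in MMP2sh2). The 14 epithelial markers summed to 42.0 to 45.1 CPM in control and 35.3 to 38.9 CPM in MMP2sh2, with GRHL2 and OVOL1 at 0. Of them EPCAM, CDH1, KRT14 and CLDN4 were above 1 CPM. The 15 blood cell markers summed to 0.497 to 1.34 CPM in control and 1.06 to 2.21 CPM in MMP2sh2, and 6 of them were at 0 in all libraries. The 14 endothelial and neural markers summed to 36.2 to 41.1 CPM and 36.5 to 38.1 CPM, with EMCN at 0. Here VWF, RBFOX3, SYP, SYT1, SNAP25 and OLIG2 were above 1 CPM. In bulk RNA, fewer cells of a kind and less RNA per cell cannot be told apart, and this holds for every level below.

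Base composition moved with the groups and is stated before the genes. Genes were divided into 5 equal groups of 3082 by the GC content of their canonical transcript, with limits at 41.1%, 46.0%, 52.2% and 58.6%. The median log2 fold change of MMP2sh2 against control was −0.16 in the genes poorest in GC, then −0.07, 0.02 and 0.09, and 0.13 in the richest. In the poorest group 681 genes were called lower and 9 higher, and in the richest 31 were called lower and 456 higher. Seen by library, the median deviation of the richest group from the mean of the 6 libraries was −0.097, −0.051 and −0.048 (log2) in control and 0.017, 0.018 and 0.166 in MMP2sh2. Replicate 3 of MMP2sh2 therefore stood apart from its own group, as it did in the poorest group (−0.154, against −0.046 and −0.043). Without that library the medians ran from −0.13 to 0.085, with 438 genes lower and 10 higher in the poorest group and 42 lower and 218 higher in the richest. Across the same groups the medians ran from −0.094 to 0.068 for MMP2sh2 at day 0 and from −0.024 to 0.020 at day +2. The part of base composition in the calls was examined with a fit that removes a smooth of each library on GC content. That fit was added after these values were seen, and its values are given beside the results below.

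**Figure D1:**
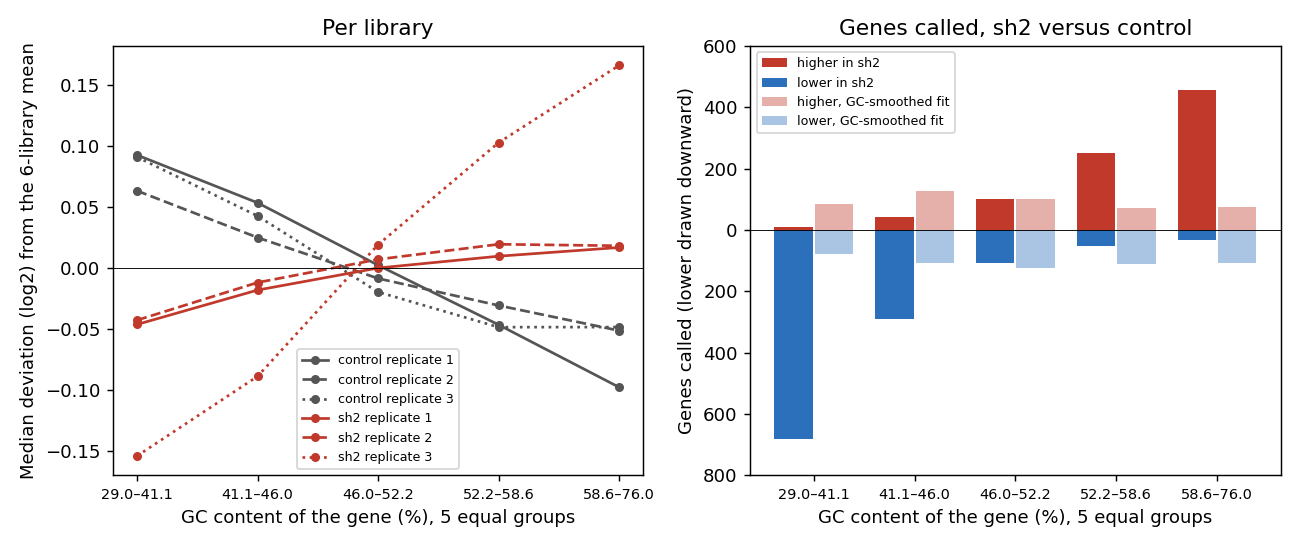
GC content of the genes and the MMP2sh2 difference at day −2. Left, the median log2 deviation of each of the 6 libraries from their mean in 5 equal groups of genes by GC content, where replicate 3 of MMP2sh2 is lowest in the first group (−0.154) and highest in the last (0.166). Right, genes called lower (drawn downward) and higher in each group, from 681 lower and 9 higher to 31 lower and 456 higher in the fit of the counts as deposited, and in paler bars from the GC-smoothed fit.

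At an adjusted p under 0.05, 2080 of the 18845 genes were called (11%), 1193 of them lower in MMP2sh2 (6.33%) and 887 higher (4.71%). Among the called genes the absolute change had a median of 0.27 (log2), and 50 genes, 37 lower and 13 higher, changed by more than 2-fold. The 3 libraries of each group did not overlap in 2017 of the 2080 called genes, and in 5385 of all genes tested. In the GC-smoothed fit 989 of the 15410 genes with a GC value were called (6.42%), 529 lower (3.43%) and 460 higher (2.99%). Of the 2020 called genes with a GC value, 654 were called in both fits (32.4%), each in the same direction, 335 genes were called after smoothing only, and 11 of the 2020 changed sign. The count also moved with single libraries, to 728, 1174 and 1252 genes in the fits that lacked control replicates 1, 2 and 3, and to 1360 in the fit that lacked MMP2sh2 replicate 3.

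The targeted gene was lower in every MMP2sh2 library. MMP2 (chr16:55423612-55540603, plus strand, hg19) was at 212, 217 and 239 CPM in control and at 130, 134 and 148 CPM in MMP2sh2, with no overlap between the groups. The means were 222.7 ± 14.1 CPM and 137 ± 9.51 CPM (SD, n = 3), so 61.7% of the control level remained. The log2 fold change was −0.70 (standard error 0.06, adjusted p = 2.1e-08) and −0.78 in the GC-smoothed fit. Adjusted p-values here and below are from the quasi-likelihood F test of edgeR, corrected by Benjamini-Hochberg over all genes tested. Leaving out each library in turn gave −0.75 to −0.64. Against the same control libraries MMP2sh1 had a log2 fold change of −2.53, and in the direct test the transcript was higher in MMP2sh2 than in MMP2sh1 by 1.84 (log2; standard error 0.09, adjusted p = 5.4e-15).

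Among the partners and relatives of MMP-2, MMP3 and the tissue inhibitors TIMP2 and TIMP3 were called higher. Of 17 tested genes for other matrix metalloproteinases, TIMPs and activators, 3 rose and none fell, against 4.71% and 6.33% of all genes (DESeq2 called 5 higher, and 2 to 4 rose without any 1 library, with 2 in the fits without replicate 1, 2 or 3 of the control or replicate 3 of MMP2sh2). MMP3 (stromelysin 1), a secreted protease that can activate other proenzymes, was at 28.3, 29.8 and 23.1 CPM in control and at 49.4, 53.6 and 51.8 CPM in MMP2sh2. It was higher in all 3 MMP2sh2 libraries, with a log2 fold change of 0.93 (standard error 0.08, adjusted p = 2.5e-08; 0.98 after GC smoothing). TIMP2, the inhibitor that also bridges pro-MMP-2 to MMP-14, was at 314, 308 and 342 CPM in control and at 381, 377 and 401 CPM in MMP2sh2 (log2 fold change 0.27, adjusted p = 0.0020). Its groups did not overlap. TIMP3, an inhibitor held in the matrix, had a log2 fold change of 0.18 at an adjusted p of 0.045, and this call was lost in 5 of the 6 fits without a library, all but the fit without replicate 1 of MMP2sh2. MMP14, the cell surface activator, was named after its values were seen. It was at 135, 144 and 143 CPM in control and at 125, 131 and 139 CPM in MMP2sh2 (log2 fold change −0.10, adjusted p = 0.29), and at −0.21 after GC smoothing (adjusted p = 0.0023). TIMP1, also named after its values were seen, had a log2 fold change of 0.10 (adjusted p = 0.28), and FURIN, the convertase that processes MMP-14, one of 0.07 (adjusted p = 0.51).

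Of the 17 tested cathepsins and cathepsin inhibitors, 4 rose and none fell, against 4.71% and 6.33% of all genes. CTSB, a lysosomal cysteine protease, was at 822, 844 and 845 CPM in control and at 984, 1011 and 1110 CPM in MMP2sh2. The groups did not overlap, and the log2 fold change was 0.31 (standard error 0.05, adjusted p = 0.00046; 0.26 after GC smoothing). The other 3 were the cysteine protease CTSF (log2 fold change 0.40), the secreted inhibitor CST3 (0.24) and the carboxypeptidase CTSA (0.18), and none of these was called after GC smoothing. Without replicate 1 or 3 of the control, or replicate 3 of MMP2sh2, 1 member of the list was called. The 48 lysosomal genes showed a similar lean, with 12 higher and 2 lower, among them the acid hydrolases GAA (0.35) and IDUA (0.62, lost in the fits without any 1 control library and without replicate 1 or 3 of MMP2sh2) and the cholesterol carrier NPC2 (0.32, named after its values were seen). The GC-smoothed fit kept 4 higher and none lower, and 2, 6 and 5 members were called higher without replicate 1 or 3 of the control or replicate 3 of MMP2sh2, and 7 without replicate 2 of either group.

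**Figure D2:**
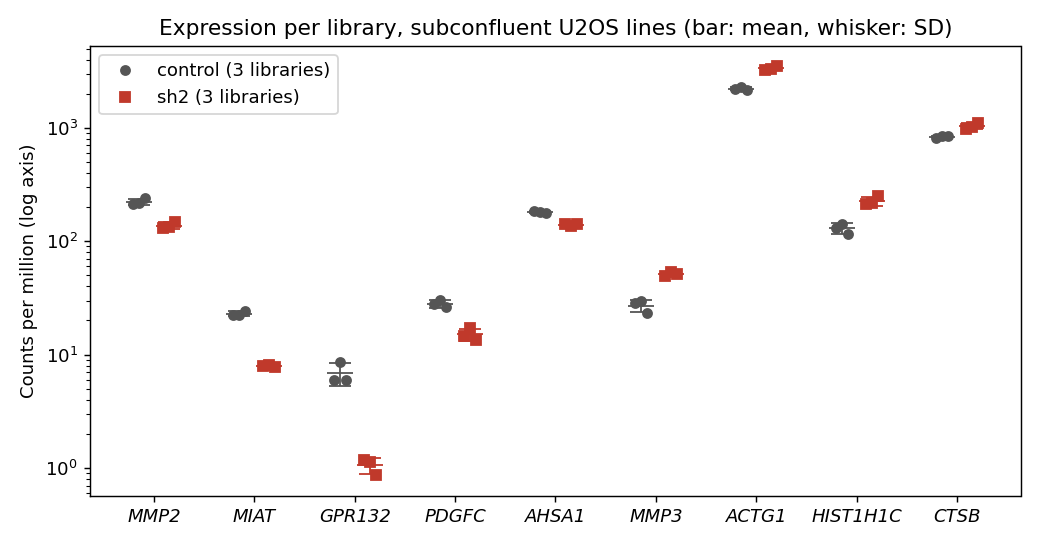
Level of 9 named genes in each of the 6 libraries of day −2, in CPM on a log axis, with the mean and SD of each group of 3. The MMP2, MIAT, GPR132, PDGFC and AHSA1 points of MMP2sh2 lie below those of control, and the MMP3, ACTG1, HIST1H1C and CTSB points lie above them.

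The plot of levels by library gives several of the genes that follow. Besides MMP2, the 5 lower genes with the smallest p were MIAT, GPR132, UNC13D, FAM3C and MEX3C. MIAT, a nuclear long noncoding RNA, was at 22.4, 22.2 and 24.5 CPM in control and at 7.99, 8.07 and 7.72 CPM in MMP2sh2 (log2 fold change −1.54, standard error 0.10, adjusted p = 1.4e-10). The levels within each group were close to each other and the groups lay far apart. GPR132, a proton-sensing G protein-coupled receptor, was at 6.03, 8.69 and 5.93 CPM in control and at 1.18, 1.13 and 0.864 CPM in MMP2sh2, which is 15.3% of control (log2 fold change −2.69, standard error 0.21, adjusted p = 9.8e-09). UNC13D, which primes secretory granules for release, was at 71.8, 70 and 74.4 CPM in control and at 41.4, 43.3 and 45.1 CPM in MMP2sh2 (log2 fold change −0.74, adjusted p = 2.2e-08). FAM3C, a secreted interleukin-like factor, had a log2 fold change of −0.80 (adjusted p = 6.5e-08), and MEX3C, an RNA-binding ubiquitin ligase, one of −0.65 (adjusted p = 1.2e-07). These calls held in the GC-smoothed fit, at −1.58, −2.79, −0.87, −0.62 and −0.66 in the order named, and without each library in turn.

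The 6 higher genes with the smallest p were ACTG1, HIST1H1C, MMP3, HIST1H2BK, IGFBP4 and MFAP5. They code for a cytoplasmic actin, a linker histone, a matrix protease, a core histone, a binding protein of insulin-like growth factors and a microfibril glycoprotein. MFAP5 was at 18.3, 20.9 and 19.9 CPM in control and at 35.3, 34.4 and 30.0 CPM in MMP2sh2 (log2 fold change 0.76, standard error 0.08, adjusted p = 1.9e-06). Its groups did not overlap, and its log2 fold change was 0.90 in the GC-smoothed fit. IGFBP4 was at 74.9, 80.9 and 80.2 CPM in control and at 111, 114 and 129 CPM in MMP2sh2 (log2 fold change 0.59, adjusted p = 6.2e-07), and at 0.45 after GC smoothing.

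Genes of the actin cytoskeleton were called higher more often than lower. Serum response factor (SRF), with its actin-sensing coactivators, drives many genes of actin and contractility through CArG boxes in their promoters. Of 32 tested members of a list of such genes, 12 rose and 2 fell, against 4.71% and 6.33% of all genes. The median log2 fold change was 0.09 against 0.00 over all genes, and 9 rose and 3 fell after GC smoothing. Without any 1 library, 10 to 12 rose and 1 or 2 fell. ACTG1 (chr17:79476439-79490873 on hg19, minus strand), which codes for the cytoplasmic gamma actin, was at 2208, 2275 and 2142 CPM in control and at 3222, 3329 and 3483 CPM in MMP2sh2. All 3 MMP2sh2 libraries were higher, with a log2 fold change of 0.60 (standard error 0.05, adjusted p = 1.1e-08; 0.52 after GC smoothing). Actin genes share sequence with each other and with pseudogenes, so that part of the count is uncertain. TAGLN, the actin-binding protein transgelin, was at 62.1, 64.7 and 48.9 CPM in control and at 71.6, 80.9 and 85.3 CPM in MMP2sh2 (log2 fold change 0.43, adjusted p = 0.0011). MYL9, a regulatory myosin light chain, was at 40.5, 42.8 and 42.8 CPM against 53.1, 53.9 and 59.0 CPM (0.40, adjusted p = 0.00045). Both genes were higher in every MMP2sh2 library. TGFB1I1, a focal adhesion coactivator, had a log2 fold change of 0.41 (adjusted p = 0.0024), and of the other members that rose, named after their values were seen, the light chain MYL12A had 0.33, the myosin heavy chain MYH9 0.27, the actin crosslinkers ACTN1 0.24, ACTN4 0.23 and FLNA 0.21, and vinculin (VCL) 0.26. The 2 members that fell were CNN3 (calponin 3, −0.27) and the kinase MYLK (−0.17).

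The promoters of 4 called members with a CArG box in the 120 bases before a RefSeq start are shown (RefSeq, GRCh38.p14), 5′ to 3′ on the strand of the gene and with the box in capitals. They were chosen after the matches were seen, and each of the 4 genes was called in the fit of the counts as deposited. ACTG1 (chr17:81512800-81512919), FLNA (chrX:154374635-154374754) and TGFB1I1 (chr16:31473085-31473204) rose, and MYLK (chr3:123620549-123620668) fell.
ACTG1: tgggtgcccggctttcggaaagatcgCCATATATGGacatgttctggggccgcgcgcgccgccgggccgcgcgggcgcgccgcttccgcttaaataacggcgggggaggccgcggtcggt
FLNA: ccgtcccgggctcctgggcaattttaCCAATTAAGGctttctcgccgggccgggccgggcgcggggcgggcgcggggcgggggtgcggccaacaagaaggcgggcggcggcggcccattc
TGFB1I1: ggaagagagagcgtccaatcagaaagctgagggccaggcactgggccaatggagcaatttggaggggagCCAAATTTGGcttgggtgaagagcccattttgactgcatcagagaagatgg
MYLK: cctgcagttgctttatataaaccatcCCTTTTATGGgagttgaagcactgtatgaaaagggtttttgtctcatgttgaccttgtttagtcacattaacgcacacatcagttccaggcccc
The CArG box reads the same as a motif on both strands. It was present in 407 of 35116 promoter windows of the table (1.16%), over the 250 bases before the start. Counted by gene, as the list members are, it was present in 394 of 27305 (1.44%). Of the 26 list members matched in the table, it was present in 4 of the 9 that rose, 1 of the 2 that fell and 6 of the 15 that were not called. A match is a run of letters, not a measured site.

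Heat shock genes were called lower. These chaperones and co-chaperones fold client proteins and are induced together by heat shock factors through heat shock elements. Of 23 tested, 10 fell and none rose, against 6.33% and 4.71% of all genes, with a median log2 fold change of −0.17. After GC smoothing 8 fell and none rose, with a median of −0.09. DESeq2 called 3 members higher, and the fit of all 27 libraries called 1. Without replicate 1 of the control 4 members fell, and without any other library 7 to 12 did. AHSA1, the co-chaperone that stimulates the ATPase of HSP90, was at 185, 182 and 177 CPM in control and at 141, 136 and 141 CPM in MMP2sh2. The groups were far apart, with a log2 fold change of −0.38 (standard error 0.05, adjusted p = 3.3e-05; −0.42 after GC smoothing). HSPH1, a nucleotide exchange factor of HSP70, was at 215, 215 and 217 CPM against 180, 177 and 165 CPM (−0.31, adjusted p = 0.00046). HSP90AA1, the stress-inducible HSP90, was at 1101, 1078 and 1116 CPM against 920, 934 and 842 CPM (−0.29, adjusted p = 0.00063). Neither gene's groups overlapped, and in both the fall was smaller after GC smoothing (−0.16 and −0.17, called). The HSP70 partner DNAJB4 fell by 0.38 on the log2 scale (adjusted p = 0.0071), a call lost after GC smoothing (−0.14) and without replicate 1 of the control. The remaining 6, named after their values were seen, were CHORDC1 (−0.27), the mitochondrial chaperonin HSPD1 (−0.24), DNAJA1 (−0.22), DNAJB6 (−0.21), DNAJB1 (−0.19) and HSPA4 (−0.19).

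Heat shock elements were searched as GAANNTTC and TTCNNGAA, which are the same letters read on both strands in either order of the repeat. The promoters of the 4 lower members with a match in the 120 bases before a RefSeq start are printed with the matches in capitals (RefSeq, GRCh38.p14, strand of the gene). They were chosen for the match, with values known. They lie at chr1:78004819-78004938 (DNAJB4), chr11:90223050-90223169 (CHORDC1), chr14:102087045-102087164 (HSP90AA1) and chr19:14518398-14518517 (DNAJB1).
DNAJB4: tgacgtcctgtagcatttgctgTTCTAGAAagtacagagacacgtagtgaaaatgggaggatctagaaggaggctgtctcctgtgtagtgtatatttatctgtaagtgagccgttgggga
CHORDC1: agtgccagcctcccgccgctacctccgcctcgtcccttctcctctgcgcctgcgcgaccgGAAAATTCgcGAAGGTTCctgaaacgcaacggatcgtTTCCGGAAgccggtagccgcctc
HSP90AA1: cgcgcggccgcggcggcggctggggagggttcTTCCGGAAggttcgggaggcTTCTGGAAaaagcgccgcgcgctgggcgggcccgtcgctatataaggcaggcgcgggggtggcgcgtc
DNAJB1: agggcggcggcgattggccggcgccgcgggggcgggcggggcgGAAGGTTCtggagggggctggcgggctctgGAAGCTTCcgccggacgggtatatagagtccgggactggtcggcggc
CHORDC1 held 3 such matches in this stretch, and HSP90AA1 and DNAJB1 held 2 each. Over the 250 bases before the start, 4067 of 35116 promoter windows held a match (11.6%). Of the 20 heat shock genes in the table, 7 of the 10 that fell and 6 of the 10 that were not called held a match. As before, a match describes the letters only.

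Matrix genes moved both ways. Of 46 collagen and matrix genes tested, 11 rose and 5 fell (median 0.10), against 4.71% and 6.33% of all genes. After GC smoothing 6 rose and 5 fell. LOXL2, an oxidase that crosslinks collagen, rose from 201, 223.5 and 213 CPM to 271, 282 and 296 CPM (log2 fold change 0.41, adjusted p = 2.0e-05). LUM, the keratan sulphate proteoglycan lumican that organises collagen fibrils, was at 15.2, 16.2 and 15.9 CPM in control and at 10.2, 9.19 and 9.48 CPM in MMP2sh2 (−0.71, adjusted p = 7.0e-05). COL3A1, a fibrillar collagen, was at 39.6, 38.5 and 40.7 CPM against 26.4, 31.4 and 32.6 CPM (−0.40, adjusted p = 0.0021). None of these groups overlapped, and the 3 calls held after GC smoothing (0.31, −0.51 and −0.44). COL16A1, a fibril-associated collagen, fell by 0.37 on the log2 scale and by 0.50 after smoothing. Basement membrane members, named after their values were seen, were split, with the proteoglycan HSPG2 at 0.34 and the collagen COL4A2 at 0.20, and the laminin chain LAMB1 at −0.25. COL1A1, the main collagen of bone, had a log2 fold change of 0.21 (adjusted p = 0.016), which was 0.08 and not called after GC smoothing. The number of matrix genes that rose was 4 without replicate 1 of the control and 7 without replicate 2 of MMP2sh2.

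Of 26 integrin and focal adhesion genes, 7 rose and 2 fell, against 4.71% and 6.33% of all genes, and 5 rose and none fell after GC smoothing. ITGA3, a laminin-binding integrin chain, was at 814, 883 and 879 CPM in control and at 1070, 1142 and 1208 CPM in MMP2sh2 (log2 fold change 0.41, adjusted p = 1.6e-05). ITGA11, a collagen-binding chain, was low, at 1.24, 0.976 and 1.49 CPM against 2.56, 2.51 and 3.27 CPM (1.17, standard error 0.27, adjusted p = 0.0055). Both were higher in every MMP2sh2 library. ITGB8, a chain that binds latent TGF-beta and whose gene lies in the chromosome 7 interval described below, fell by 0.30 on the log2 scale (lost without replicate 1 or 3 of the control or 1 or 2 of MMP2sh2) and, named after its values were seen, the common beta chain ITGB1 by 0.19, and neither was called after GC smoothing. Without replicate 1 of the control, 3 members rose and none fell. DESeq2 called 4 members lower.

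Growth factor genes and their binding proteins held some of the larger changes. Of 41 tested, 10 rose and 3 fell (7 and 5 after GC smoothing, and 4 and 3 without replicate 1 of the control or without replicate 2 of MMP2sh2). Over all genes tested, 4.71% rose and 6.33% fell. PDGFC, a ligand of platelet-derived growth factor receptors, was at 27.8, 30.2 and 26.1 CPM in control and at 14.7, 17 and 13.5 CPM in MMP2sh2. It was at 53.8% of control, with a log2 fold change of −0.89 (standard error 0.09, adjusted p = 6.2e-07). Its relative PDGFA, named after its values were seen, also fell (−0.42, adjusted p = 0.00020) and lies in the chromosome 7 interval described below, while PDGFB was higher (0.41, adjusted p = 0.028; 0.29 and not called after GC smoothing). Among the binding proteins of insulin-like growth factors, IGFBP4 (0.59) and IGFBP7 (0.48) rose. IGFBP5 fell, from 75.1, 81.8 and 76.4 CPM to 53.5, 53.6 and 62.4 CPM (−0.46, adjusted p = 7.3e-05). The members of this family thus moved in opposite directions, with no overlap between the groups of IGFBP5.

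Several replication-dependent histone genes were higher in MMP2sh2. Replication-dependent histone genes are usually made without a poly(A) tail, so that a poly(A) library sees few of their transcripts, and near-identical copies share reads, which leaves single members uncertain. Of 38 tested, 9 rose and 1 fell (median 0.29), against 4.71% and 6.33% of all genes. Of the 33 with a GC value 6 rose after smoothing. Leaving out any 1 library gave 7 higher and none or 1 lower. HIST1H1C, a linker histone, was at 132, 143 and 115 CPM in control and at 213, 217 and 251 CPM in MMP2sh2 (log2 fold change 0.80, standard error 0.07, adjusted p = 2.1e-08; 0.71 after GC smoothing). HIST1H2BK was at 186, 177 and 183 CPM against 254, 264 and 273 CPM (0.54, adjusted p = 1.7e-07; 0.43 after smoothing). Both were higher in all MMP2sh2 libraries. HIST1H3B, at 1.59, 1.02 and 0.534 CPM against 0.624, 0.214 and 0.216 CPM, was the member that fell (−1.59, adjusted p = 0.047). Its groups overlapped, and its call was lost after GC smoothing and without replicate 1 or 2 of the control or 2 or 3 of MMP2sh2.

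Of 46 mitosis genes, which encode kinesins, kinetochore proteins and checkpoint kinases, 17 fell and 3 rose, against 6.33% and 4.71% of all genes (median −0.12). These are GC-poor transcripts, with a median of 42.6%, and after GC smoothing 4 fell and 3 rose (median −0.03). The spindle regulator DLGAP5 was among those that still fell (−0.33 and −0.16), and the kinetochore motor CENPE (−0.34 and −0.13) and the spindle motors KIF14 (−0.33 and −0.16) and KIF11 (−0.29 and −0.14, lost also without replicate 3 of the control) were called in the first fit only. Named after its values were seen, the proliferation marker MKI67 was at 690, 683 and 760 CPM in control and at 631, 632 and 565 CPM in MMP2sh2 (−0.22, adjusted p = 0.010; −0.23 after GC smoothing). The groups did not overlap. The number of mitosis genes that fell was 7, 13 and 5 without replicate 1, 2 or 3 of the control, and 11 or more without a MMP2sh2 library, and none or 1 rose without any 1 of the 6 libraries. The 47 DNA replication genes had 5 lower and none higher in each fit (10.6% called, beside 11% of all genes), with PRIM1, a primase subunit, at −0.31 in the first (−0.16 and not called after smoothing). When a library was left out, 1, 2 and 3 members fell in the fits lacking control replicates 1, 2 and 3 and 2 in those lacking MMP2sh2 replicate 1 or 2, and DESeq2 called 3 higher.

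The 13 genes of mitochondrial DNA had 10 higher and none lower (median 0.29), against 4.71% and 6.33% of all genes. The counts were the same after GC smoothing. MT-ND4, a subunit of complex I, was at 3760, 5278 and 5336 CPM in control and at 5622, 7391 and 6559 CPM in MMP2sh2 (log2 fold change 0.45, standard error 0.09, adjusted p = 0.0021). MT-CO1, a subunit of complex IV, was at 8270, 11908 and 11134 CPM against 12087, 15623 and 13976 CPM (0.41, adjusted p = 0.0030). The groups of these genes did not overlap but lay close, and replicate 1 of the control was the lowest library of both. The share of counts on mitochondrial genes was 4.16%, 5.30% and 4.96% in control and 5.09%, 6.20% and 5.65% in MMP2sh2. In this share the groups overlapped. Without replicate 1 of the control or replicate 2 of MMP2sh2, 3 members rose, and without replicate 3 of the control 7 rose and 1 fell. DESeq2 called none of the 13 and the fit of all 27 libraries called 6, so that the number of calls depended on the tool. Of the 77 nuclear genes of the respiratory chain, 4 rose and 2 fell. The 2 that fell, the electron carrier CYCS (−0.54) and the complex IV subunit NDUFA4 (−0.44), both lie in the chromosome 7 interval described below.

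**Figure D3:**
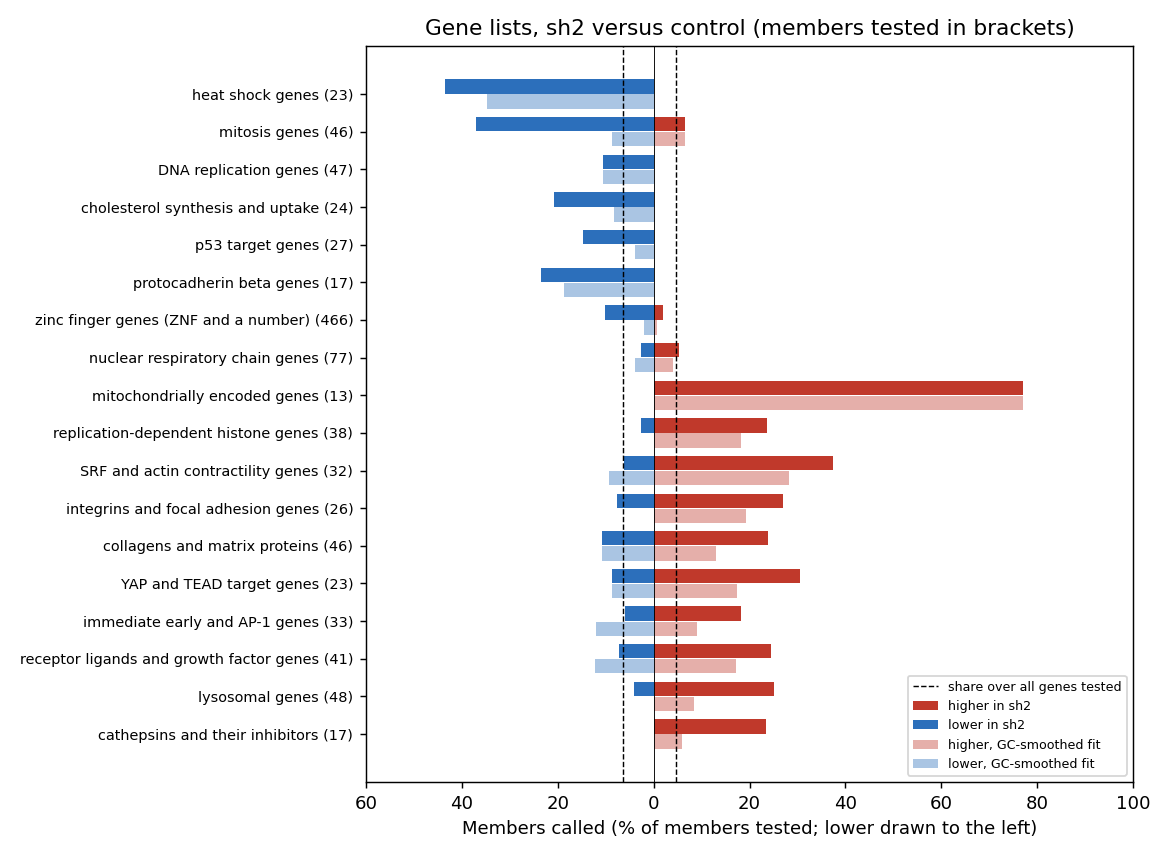
Members called higher (right) and lower (left) in MMP2sh2 at day −2, as a percent of the members tested of each gene list, with the number tested in brackets. Dashed lines give the shares over all genes tested, 6.33% lower and 4.71% higher, and paler bars the GC-smoothed fit. Heat shock genes reach furthest to the left (10 of 23) and mitochondrially encoded genes furthest to the right (10 of 13), in both fits.

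The other lists shown in the plot of gene lists, and those not shown, are read against the background of 11%, and several moved with GC content. Of 466 zinc finger genes named ZNF and a number, which are GC-poor, 47 fell and 9 rose, and after GC smoothing 9 fell and 3 rose. ZNF788 was the member furthest down among those above 1 CPM, at 3.07, 3.22 and 3.65 CPM in control and at 1.09, 1.32 and 0.945 CPM in MMP2sh2 (log2 fold change −1.55, adjusted p = 0.00025). Of 24 cholesterol genes 5 fell and none rose, with INSIG1, a brake on sterol synthesis, at −0.29 (lost without replicate 3 of the control), and 2 fell after smoothing. Of 27 p53 targets 4 fell and none rose, among them the p53 ubiquitin ligase MDM2 (−0.30), and 1 fell after smoothing. Of 33 immediate early genes 6 rose and 2 fell, with EGR1 at 0.44 and FOSL1 at 0.42, both called after smoothing too, and PHLDA1 at −0.46. After smoothing 3 immediate early genes rose and 4 fell, and without replicate 1 of the control 3 rose and 1 fell. Of 23 YAP targets 7 rose and 2 fell, with F3, the tissue factor that starts coagulation, at 0.55, and 4 rose and 2 fell after smoothing. Without replicate 1 or 2 of the control or 2 of MMP2sh2, 4 YAP targets rose. The 25 TGF-beta targets had 5 higher and 4 lower, with ID4 at 0.45 (lost without replicate 1 of the control or 2 of MMP2sh2). After smoothing 5 TGF-beta targets rose and 1 fell, and without replicate 1 of the control 4 rose and 1 fell. Of 17 protocadherin beta genes, a cluster of near-identical adhesion genes whose reads may be split among copies, 4 fell, with PCDHB2 at −0.83 (lost without replicate 3 of the control), and 3 fell after smoothing. Of 18 HLA and antigen presentation genes 4 rose, and none was called after smoothing. Without any 1 library, 17 to 39 zinc finger genes, 2 to 6 cholesterol genes and 2 or 3 p53 targets fell, and 0 to 5 HLA and antigen presentation genes rose.

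Of 16 RNA interference genes DICER1, which makes small RNAs from hairpins, was called (−0.23, adjusted p = 0.032). It was at −0.09 and not called after GC smoothing, and its call was lost without replicate 1 or 3 of the control or 2 or 3 of MMP2sh2. Of 40 interferon-stimulated genes 2 rose and 3 fell, with IFIT3 at 0.61 (lost without replicate 1 of the control or 2 of MMP2sh2), and of 27 tested chemokines, cytokines and NF-kB targets 2 rose, with RELB at 0.45. Of 71 histone-modifying enzymes 7 fell and 4 rose, and after smoothing 2 fell and 2 rose. HDAC9, a histone deacetylase in the chromosome 7 interval, was the furthest down (−0.46). Of 89 cytosolic ribosomal protein genes 4 fell and 2 rose at this day.

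The largest falls and rises were mostly in transcripts of low level, with a mean of 6.9 CPM or less in the higher group. MIAT, MMP3 and MTATP6P1 lay above that level. Besides those given, the genes with at least 1 CPM in the higher group and the largest falls were C2orf54 (−3.30), RP11-671C19.2 (−2.27), FOXS1 (−1.60), LINC01029 (−1.53), F13A1 (−1.49), NKD2 (−1.44), DPPA2 (−1.31) and WNT11 (−1.25). F13A1, the catalytic chain of coagulation factor XIII, was at 2.95, 3.24 and 2.42 CPM in control and at 0.947, 1.01 and 1.11 CPM in MMP2sh2 (adjusted p = 0.00068). WNT11, a ligand of noncanonical WNT signalling, was at 5.68, 3.90 and 5.90 CPM against 2.52, 2.14 and 1.84 CPM (adjusted p = 0.00031). FOXS1, a forkhead factor, was at 2.27, 2.25 and 2.08 CPM against 0.531, 0.991 and 0.621 CPM (adjusted p = 0.0020). The groups of these 3 genes lay apart, and each call held without any 1 library and after GC smoothing. DESeq2 gave no adjusted p for FOXS1 and F13A1, so that they were not called there. NKD2, an antagonist of WNT signalling, was at 1.14, 1.36 and 0.928 CPM against 0.30, 0.739 and 0.189 CPM, and its call (adjusted p = 0.049) was lost after smoothing and in 5 of the 6 fits without a library, all but the fit without replicate 2 of MMP2sh2. The largest rises, besides those given, were ANKRD20A19P (1.63), MYL5 (1.48), RP11-85M11.2 (1.38), MESP1 (1.21), RP11-573D15.9 (1.19), RNF144B (1.02), MTATP6P1 (0.97), SCNN1D (0.97), TRAF1 (0.96) and AC108488.4 (0.88). The calls of MYL5, RP11-85M11.2, MESP1, RP11-573D15.9, SCNN1D and AC108488.4 were lost without 1, 4, 5, 3, 4 and 6 of the 6 libraries in turn, replicate 3 of MMP2sh2 alone for MYL5. TRAF1, an adaptor of TNF receptors, was at 2.27, 2.31 and 2.16 CPM in control and at 4.37, 4.0 and 4.78 CPM in MMP2sh2 (adjusted p = 0.0023). The calls of TRAF1 and RNF144B were lost in the fit of all 27 libraries. ANKRD20A19P, a pseudogene with close relatives, and MTATP6P1, a nuclear copy of a mitochondrial gene, may hold reads of other genes.

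The difference was uneven along the chromosomes, and the 3 control libraries of day −2 stood apart in the first 30 Mb of chromosome 7. Of 151 tested genes in that interval, 52 fell and none rose in MMP2sh2 (median −0.21), and in the GC-smoothed fit 60 of 147 fell and none rose (median −0.22). Over all genes tested 6.33% fell and 4.71% rose, and 3.43% and 2.99% in the GC-smoothed fit. By 10 Mb window, 23 of 75, 9 of 20 and 20 of 56 genes fell, with medians of −0.15, −0.36 and −0.31. Over the 265 windows of the genome with at least 20 tested genes the medians ran from −0.36 to 0.22. The 3 windows were joined after their values were seen. Against the same control libraries MMP2sh1 had 54 of 154 genes lower and 1 higher there. Over 124 genes of the interval, the median deviation from the mean of all 27 libraries was 0.147, 0.149 and 0.183 (log2) in the 3 control libraries of day −2 and −0.118 to 0.0737 in the other 24 libraries. It was −0.036, −0.042 and −0.021 in MMP2sh2 of day −2. MMP2sh2 against the control of day 0 had 10 genes lower and 18 higher of 152 in this interval, and against the control of day +2 it had 9 lower and 9 higher of 152. The falls here thus moved with the control libraries of this day, and their part in the result was not tested.

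Among the genes of that interval, PHF14, a chromatin reader, was at 50.7, 52.4 and 54.9 CPM in control and at 31.8, 34.8 and 31.7 CPM in MMP2sh2 (log2 fold change −0.68, adjusted p = 3.8e-07). CDCA7L, a nuclear partner of MYC, was at 69.6, 64.8 and 68.5 CPM against 42.9, 44.1 and 43.4 CPM (−0.64, adjusted p = 2.0e-07). CYCS, cytochrome c, was at 216, 221 and 190 CPM against 144, 144 and 143 CPM (−0.54, adjusted p = 6.2e-07). In each the groups did not overlap. The lysosomal membrane protein TMEM106B (−0.61), the sorting nexin SNX13 (−0.58), the lipid carrier OSBPL3 (−0.50) and the autophagy receptor TAX1BP1 (−0.37) were also among the 4 called genes with the smallest p in their 10 Mb windows. At day 0, against other control libraries, PHF14 was at −0.04, CYCS at 0.16, OSBPL3 at −0.03 and CDCA7L at −0.30.

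**Figure D4:**
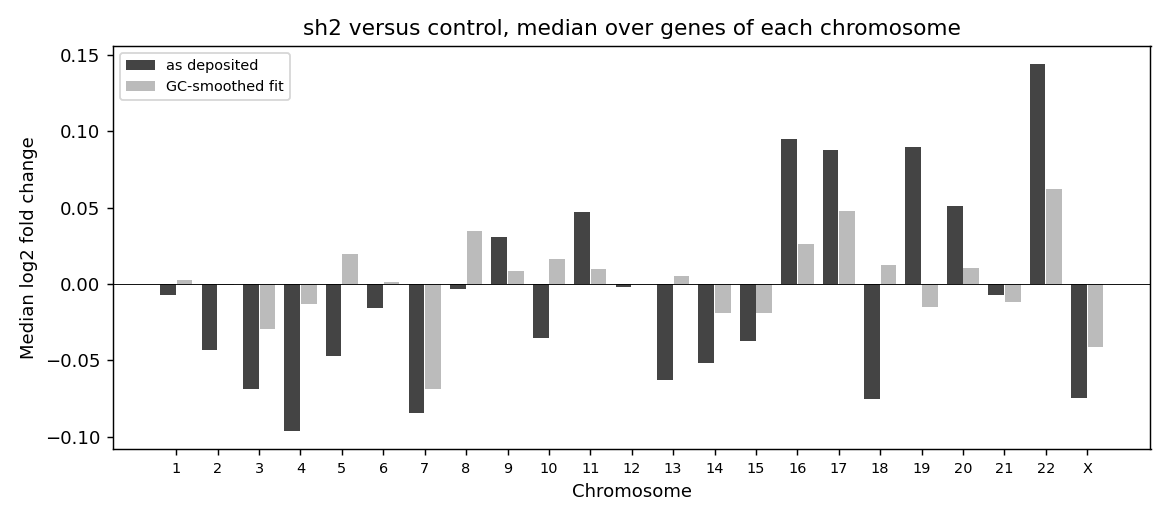
Median log2 fold change of MMP2sh2 against control at day −2 over the genes of each chromosome, in the fit of the counts as deposited (dark) and the GC-smoothed fit (pale). Chromosome 7 stays below 0 in both fits (−0.08 and −0.07), and chromosome 22, the highest drawn, falls from 0.14 to 0.06. The mitochondrial genes are not drawn, and had medians of 0.26 and 0.35.

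Chromosome 22 had 79 of 412 genes higher and 4 lower (median 0.14), and 27 higher and 8 lower after GC smoothing (median 0.06). Over all genes tested 4.71% were called higher and 6.33% lower, and 2.99% and 3.43% after GC smoothing. On chromosome 17 beyond 70 Mb, an interval that holds ACTG1, TIMP2 and UNC13D, 65 of 174 genes rose and 3 fell (median 0.19), and 26 rose and 5 fell after GC smoothing (median 0.09). Against the same control libraries MMP2sh1 had 46 of 176 genes higher and 5 lower there (median 0.14). After GC smoothing MMP2sh1 had 42 higher and 9 lower of 175 (median 0.11). MMP2sh2 had 36 genes higher and 7 lower of 178 at day 0, where 12.9% of all genes were called. At day +2 it had 11 higher and 7 lower of 180, where 6.32% of all genes were called. This interval joins 2 windows chosen after their values were seen, with medians of 0.19 and 0.22, among the 3 highest of the 265 as deposited. After GC smoothing their medians were 0.086 and 0.112. The 2 highest in that fit were the first windows of chromosome 18 (0.112 and 0.134). Over its whole length chromosome 7 had 117 genes lower and 25 higher of 750 (median −0.08), and 89 lower and 20 higher after smoothing.

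MMP2sh2 was compared with the control of day 0 and day +2 in other libraries, where 12.9% (2456 of 19063) and 6.32% (1222 of 19339) of the tested genes were called. Of the 2080 genes called at day −2, 2073 were tested at day 0, and 1595 of them (76.9%) had the same sign there, beside 60.7% of all genes tested at both days. Of these, 612 (29.5%) were called in the same direction and 72 in the opposite one, beside 1880 (10.3%) and 556 of the 18198 genes tested at both days. Of 2069 tested at day +2, 1330 (64.3%) had the same sign, beside 54.7% of all genes, 166 (8.02%) were called in the same direction and 104 in the opposite one, beside 659 (3.66%) and 514 of the 18019 genes tested at both days. Genes are not independent replicates, and the base composition that moved at day −2 moved the same way at day 0. Of the genes called after GC smoothing, 704 of 986 (71.4%) had the same sign at day 0 and 577 of 982 (58.8%) at day +2. The share over all genes was not computed in the GC-smoothed fits, so these 2 values have no background beside them. A total of 107 genes were called in the same direction at all 3 days, 58 lower and 49 higher.

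Genes called at all 3 days included the targeted gene and some matrix genes. MMP2 had log2 fold changes of −0.70, −1.06 and −0.82 at days −2, 0 and +2. COL3A1 was at −0.40, −0.82 and −0.81, LUM at −0.71, −0.44 and −0.41 and MFAP5 at 0.76, 0.97 and 1.19. IGFBP5 was at −0.46, −0.93 and −0.51, MEX3C at −0.65, −0.55 and −0.29, FAM3C at −0.80, −0.49 and −0.44, and FOXS1 at −1.60, −1.47 and −0.97. The long noncoding RNA LINC01029 was at −1.53, −0.89 and −1.03 and the atypical cadherin FAT4 at 0.47, 0.55 and 0.41.

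**Figure D5:**
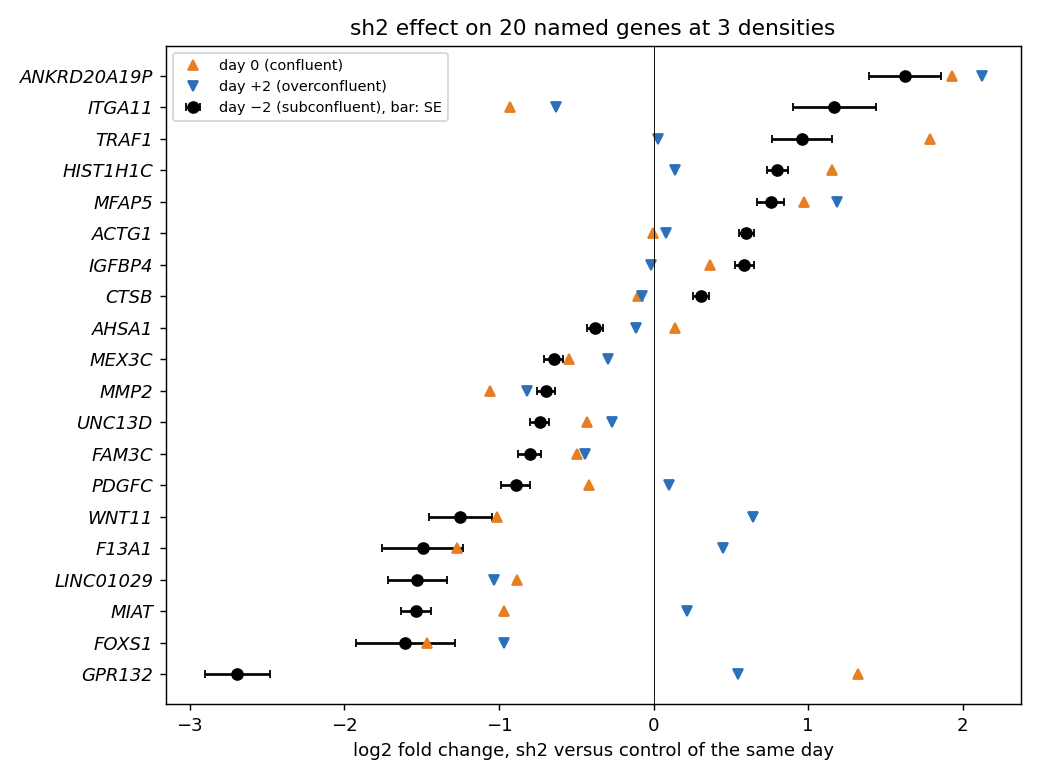
log2 fold change of MMP2sh2 against the control of the same day for 20 named genes at days −2 (with its standard error), 0 and +2. MMP2, FOXS1, LINC01029, FAM3C and MEX3C lie below 0 and MFAP5 and ANKRD20A19P above 0 at every day, GPR132 and ITGA11 change side, and ACTG1 lies near 0 after day −2.

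In other genes the difference depended on the day, as tested by the interaction of line and day. The change from day −2 to day 0 was called in 750 of 20348 genes (3.69%), 500 of them toward a higher and 250 toward a lower value in MMP2sh2 (375 to 742 without any 1 library; 375 and 492 without replicate 1 or 2 of the control of day −2, 492 and 494 without replicate 1 or 3 of the control of day 0, and 475 and 397 without replicate 1 or 3 of MMP2sh2 of day 0). The split of these calls was 33.3% lower here and 50.2% lower among genes with at least 10 counts in every library. The change from day −2 to day +2 was called in 1029 of 20653 (4.98%), 559 higher and 470 lower, and in 541 without replicate 3 of the control of day +2. Both interactions use the control libraries of day −2 that stood apart in the first 30 Mb of chromosome 7. In that interval 41 of 159 genes were called toward higher and 1 toward lower for day 0. For day +2 the interval had 32 of 160 toward higher and 0 toward lower. The part of these control libraries in the interactions was not tested. GPR132 went from −2.69 at day −2 to 1.32 at day 0 and 0.55 at day +2 (interactions 4.02, adjusted p = 4.0e-08, and 3.23, adjusted p = 1.5e-08). ITGA11 went the other way, from 1.17 to −0.93 and −0.63 (interactions −2.08, adjusted p = 4.3e-05, and −1.80, adjusted p = 7.2e-05). ACTG1 was called higher at day −2, with values of −0.01 and 0.08 at the later days (interactions −0.59, adjusted p = 8.3e-09, and −0.52, adjusted p = 6.6e-07). MIAT was at −1.54, −0.96 and 0.22 (interactions 0.58, adjusted p = 0.0062, and 1.75, adjusted p = 7.6e-14). AHSA1 was at −0.38, 0.14 and −0.11, with an interaction of 0.53 at day 0 (adjusted p = 1.3e-05), and CTSB at 0.31, −0.10 and −0.08, with interactions of −0.40 (adjusted p = 7.4e-05) and −0.39 (adjusted p = 0.00018). PDGFC was at −0.89, −0.42 and 0.10, and HIST1H1C at 0.80, 1.16 and 0.14. The lists below are set beside 12.9% of all genes called at day 0 and 6.32% at day +2. Of the 23 heat shock genes 1 fell and 6 rose at day 0, and the interaction with day 0 was called toward higher in 8 and toward lower in 1, beside 3.69% of all genes. Of the cytosolic ribosomal protein genes 58 of 88 rose at day 0 and 25 of 88 fell at day +2. Of the nuclear respiratory chain genes 33 of 77 rose at day 0, and of the cholesterol genes 14 of 24 rose at day +2.

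Tested directly against MMP2sh1 of day −2, which leaves the shared control libraries out, MMP2sh2 differed in 2009 of 18784 genes (10.7%), 941 lower and 1068 higher, and in 1208 and 1293 without replicate 1 or 2 of MMP2sh1 and 1282 without replicate 2 of MMP2sh2. MMP2sh2 was lower than MMP2sh1 in UNC13D (−0.68, adjusted p = 1.2e-07), FAM3C (−0.85, adjusted p = 2.3e-08), PDGFC (−0.98, adjusted p = 1.3e-07), WNT11 (−1.41, adjusted p = 2.1e-05), GPR132 (−1.54, adjusted p = 0.00027) and MEX3C (−0.38, adjusted p = 0.00064). It was higher in ACTG1 (0.40, adjusted p = 2.8e-05), HIST1H1C (0.52, adjusted p = 2.8e-06), MMP3 (0.36, adjusted p = 0.0014), TRAF1 (1.34, adjusted p = 0.00018), CTSB (0.43, adjusted p = 6.6e-05) and TIMP2 (0.39, adjusted p = 0.00017). The type III collagen gene COL3A1 was higher in MMP2sh2 by 1.40 (adjusted p = 1.5e-09), and 23 of the 46 matrix genes were called higher and 5 lower in this test. MIAT (−0.30, adjusted p = 0.17), FOXS1 (−0.38, adjusted p = 0.67), LINC01029 (0.34, adjusted p = 0.51), F13A1 (−0.57, adjusted p = 0.33) and HIST1H2BK (0.05, adjusted p = 0.65) were not called between the hairpin lines, which does not show that they were equal. Set side by side against the control libraries that both comparisons share, these genes had log2 fold changes of −1.54, −1.60, −1.53, −1.49 and 0.54 in MMP2sh2 and of −1.23, −1.22, −1.86, −0.92 and 0.49 in MMP2sh1.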

How the data were processed

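Poly(A) RNA was sequenced from 27 U2OS libraries, of which the 6 of control and MMP2sh2 at day −2 carry the comparison. Per the study's methods, the authors extracted RNA with TRIzol, prepared libraries with NEBNext Ultra II, and ran Trim Galore 0.6.0, STAR 2.7.3a against hg19 and HTSeq 2.0.0 on the reads. What the authors deposited are unnormalized counts for each gene symbol, made without strand and with reads over more than 1 gene discarded, so that antisense partners cannot be told apart and overlapping genes lose reads. The summary lines that name no gene (16.8% to 17.8% of the counts) were left out.

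Counts were tested with edgeR 4.0.16 (R 4.3.3; TMM scaling, the filterByExpr filter with a minimum count of 10 and a minimum total of 15, quasi-likelihood F test, Benjamini-Hochberg adjustment, threshold 0.05). The same fit gave the direct test against MMP2sh1 and the line-by-day interactions on their own libraries. The standard error is the log2 fold change divided by the root of F. P-values measure the spread between the 3 replicates of each line. The edgeR fit of MMP2sh2 against control at day −2 was also run on simulated counts with known fold changes, and the other fits were not. GC content came from GENCODE v44 on GRCh37, to which 35376 of 55882 symbols matched (1866 by an older symbol), and 81.8% of tested and 97.1% of called genes had a value. The GC fit, added after the data were seen, used a lowess of each library on GC content (span 0.3, prior count 2) as an offset. Alternatives were DESeq2 1.42.0, other scaling and filters, all 27 libraries in 1 fit, the replicate number as a term and leaving out each library. Named genes were MMP2 and CTSB, the 12 largest falls and rises with at least 1 CPM in the higher group, the 6 smallest p in each direction, up to 4 called members of each of 49 lists by size of change, the 6 largest differences each way in the other tests, and up to 4 called genes of a described window. The genes and lists were chosen with earlier results of these data known.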

Additional observations from a re-analysis of the deposited data

Results flagged for a closer look

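The difference between MMP2sh2 and control was set against the other hairpin line and the later days by tests of the difference itself. Each value is a log2 difference, and none was given an explanation.

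Against MMP2sh1 at day −2, 2009 genes differed. Of the genes with at least 1 CPM in a group, the largest differences toward lower in MMP2sh2 were C2orf54 (−3.61), C1orf116 (−3.29), RP11-78C3.1 (−3.21), AC006126.4 (−2.90), C4orf26 (−2.40) and FAM71D (−2.38). Those toward higher were PCDHGB6 (1.93), MMP2 (1.84), the ganglioside synthase ST8SIA1 (1.64), FTH1P2 (1.59), MYL5 (1.57) and the transcription factor ATOH8 (1.49). Against the shared control libraries of day −2, the values in MMP2sh2 and MMP2sh1 were −3.30 and 0.31 for C2orf54. They were −1.36 and 1.93 for C1orf116, −0.04 and 3.17 for RP11-78C3.1, −0.52 and 1.88 for C4orf26 and −1.51 and 0.88 for FAM71D. AC006126.4 had a value in MMP2sh1 only (1.00). Of the genes toward higher, the values against control were 0.90 and −1.04 for PCDHGB6, −0.70 and −2.53 for MMP2 and 0.49 and −1.15 for ST8SIA1. They were 0.73 and −0.86 for FTH1P2, 1.48 and −0.07 for MYL5 and 0.51 and −0.98 for ATOH8. The calls of PCDHGB6, ATOH8, MYL5 and FTH1P2 were lost without at least 1 library.

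The MMP2sh2 difference changed from day −2 to day 0 in 750 genes. It changed most toward lower in the integrin chain ITGA11 (−2.08), MYLK2 (−1.67), RTBDN (−1.65), EEF1A1P19 (−1.47), RP11-146N23.1 (−1.43) and the serotonin receptor HTR2A (−1.36), and toward higher in GPR132 (4.02), ZBED2 (2.89), RP11-227H15.4 (2.31), ARL14 (2.17), RP11-443P15.2 (2.08) and ARHGAP22 (1.80). The calls of RTBDN, RP11-146N23.1, RP11-227H15.4, ARL14, RP11-443P15.2 and ARHGAP22 were lost without 6 to 10 of the 12 libraries in turn.

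From day −2 to day +2 the difference changed in 1029 genes. It changed most toward lower in C6orf99 (−5.87), ATOH8 (−4.86), RP11-301G19.1 (−3.63), the perforin gene PRF1 (−3.14), TPRG1 (−2.97) and RP11-15N24.4 (−2.89). PRF1 was not called after GC smoothing (adjusted p = 0.062). ATOH8 was at 0.0078 CPM in MMP2sh2 of day +2, and its value ran from −6.72 to −3.16 without each library in turn. C6orf99 was at 0 in all 3 MMP2sh2 libraries of day +2, so that its value depends on the prior count. It changed most toward higher in C2orf54 (6.04), PRSS1 (3.96), GPR116 (3.36), GPR132 (3.23), RASSF6 (2.41) and TGM4 (2.15). Without each library in turn the value of C2orf54 ran from 2.84 to 8.85 and that of PRSS1, at 0.0094 CPM in MMP2sh2 of day −2, from 2.59 to 5.86. C2orf54 was at 0.108 CPM in MMP2sh2 of day −2. At day +2 C2orf54 was at 0.019 CPM in control and 0.133 CPM in MMP2sh2. GPR116 was at 0.017 CPM in MMP2sh2 of day −2. GPR116 was not called after GC smoothing (adjusted p = 0.059). The calls of PRF1, TPRG1, PRSS1, GPR116 and TGM4 were lost without 8 to 10 of the 12 libraries in turn, that of C2orf54 without 4, and those of ATOH8, RP11-15N24.4 and RASSF6 without 1 each.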

How the results depend on the processing

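The count of 2080 called genes was 2624 with DESeq2, 2289 with all 27 libraries in 1 fit, 2070 with median-of-ratios scaling, and 2084 and 2301 with no filter or at least 10 counts in every library. It fell to 989 with the GC smooth and ran from 728 to 1743 without each library in turn. The direct test against MMP2sh1 gave 1208 to 1946 calls without a library, the change to day 0 gave 375 to 742 and the change to day +2 gave 541 to 1214. MMP2 held in every fit. Of the 200 named genes called at day −2, none reversed under any alternative. With DESeq2 5 of 178 lost the call, 4 of them mitochondrial genes, and the other 22 got no adjusted p there (among them C2orf54, FOXS1, ZNF788, F13A1, DPPA2, MYL5, ITGA11 and RNF144B). The call was lost with the GC smooth in 76 of 194 and without a library in 32 to 77. Of 147 list counts and medians, 20 moved with DESeq2, 62 with the GC smooth and 30 to 66 without a library. Of the changes to day 0, 33.3% were toward lower, and 45.4% with no filter. Same-numbered replicates correlated at 0.07, −0.11 and −0.08 for control and MMP2sh2 (1 of 3 best with its own number) and at 0.15, 0.07 and 0.32 for MMP2sh1 and MMP2sh2 (2 of 3). Not every value passed 0.1 in either, so they were taken to share only a number. The replicate block gave 2052 (2080 without it), 2974 (2009), 726 (750) and 877 (1029) calls in the 4 tests. The cause of these shifts was not tested. With 3 libraries a group and 35135375 or more counts each, changes in genes near 1 CPM are the least certain.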
